A study of Glycine max with 46 samples.

Results

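The 100 steady transcripts are the soybean genes whose level moved least, among well-measured genes, from the drying of the seed to 27 h after water uptake. They were chosen by their own measured values: of the 54175 genes in the table, 2877 had a mean of at least 500 normalized counts at each of 7 stages, these were ranked by the highest over the lowest of 21 replicate values, and the first 100 were taken. Because the same values chose the members, their steadiness is a description and is not tested. A normalized count is the number of reads of a gene divided by 1 size factor per library, and it is not corrected for transcript length, so transcript levels are compared within a gene and not between genes. Where genes are set side by side or ordered by normalized counts, this is an order of read numbers, which also grow with transcript length.

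Seeds of Glycine max, cultivar Williams 82, 1 genotype throughout, were grown in long days and sampled at early, mid and late desiccation, as dry seed, and 3, 16 and 27 h after imbibition, with 3 replicates per stage that the labels call biological. The labels give whole seed as the tissue, while the protocol speaks of embryos. Nothing in the labels says whether the replicates came from separate plants, so any spread between them may be partly technical. Seed tissue could not be checked against marker genes, since none of the gene IDs was paired with a name in the sources used here (0 IDs matched a reference table of 59048 genes). The roles of the members are therefore not given, and genes are named by ID.

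During desiccation a legume seed stops filling, loses most of its water and enters a quiet state in which messenger RNA made earlier is stored. On imbibition the dry tissue takes up water, metabolism restarts, stored transcripts are used or degraded, and new transcripts are made. A transcript that keeps its level through such a change is commonly looked for as a reference against which other transcripts are measured, and whether it qualifies depends on the scale used, since sequencing gives the level of a gene relative to the other genes of a library. In bulk seed RNA, fewer cells of a type and less RNA per cell cannot be told apart.

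Depth was uneven in 1 library. Late desiccation replicate 3 is represented here by 1 run of 2.53 M reads (M, mega), in which 1 read is worth 8.68 normalized counts, while the other 20 replicates held 43.8 to 86.5 M reads. The members were thus counted with a median of 96 reads (lowest member 59) in late desiccation replicate 3, against medians of 1686 to 4954 reads in the other replicates. At that median depth, counting alone gives an SD of 0.15 on the log2 scale in late desiccation replicate 3. For reads summed over runs it is at most 0.04 in any other replicate. The values used here average runs with equal weight, so where 1 run is shallow their counting error is larger than that. For late desiccation replicate 3 the labels also list a run 2, which matched no column. Run 1 of late desiccation replicates 1 and 2 held 3.09 and 3.26 M reads, and run 2 of early desiccation replicate 2 held 2.47 M. No replicate was found to be 1 library deposited again: over the whole table, the 21 pairs of replicates within stages had a chi-square of 16.2 to 222 per degree of freedom. Early desiccation replicate 3 stood apart from the others of its stage, with 222 and 160 in its pairs. Late desiccation replicate 1 held many of the members' lowest values, as described below. With late desiccation replicate 2 it nevertheless formed the pair with the lowest chi-square, 16.2.

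Among the 100 members the highest replicate value was 1.34 to 1.74 times the lowest, with a median of 1.67. The other 2777 genes past the floor of 500 ran from 1.74 to 794, with a median of 3.13, and 265 of them (9.54%) also stayed within 2-fold. Stage means of the members differed by 1.10-fold to 1.56-fold (median 1.35-fold) between the highest and the lowest stage, against a median of 2.35-fold in the other genes. Members lay at the low end of the read numbers that the floor admits: their means over the stages ran from 537 to 3078 normalized counts with a median of 772, against a median of 1446 in the other genes, and 24 members reached 1000. The plot of range against level shows this position.

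**Figure D1:**
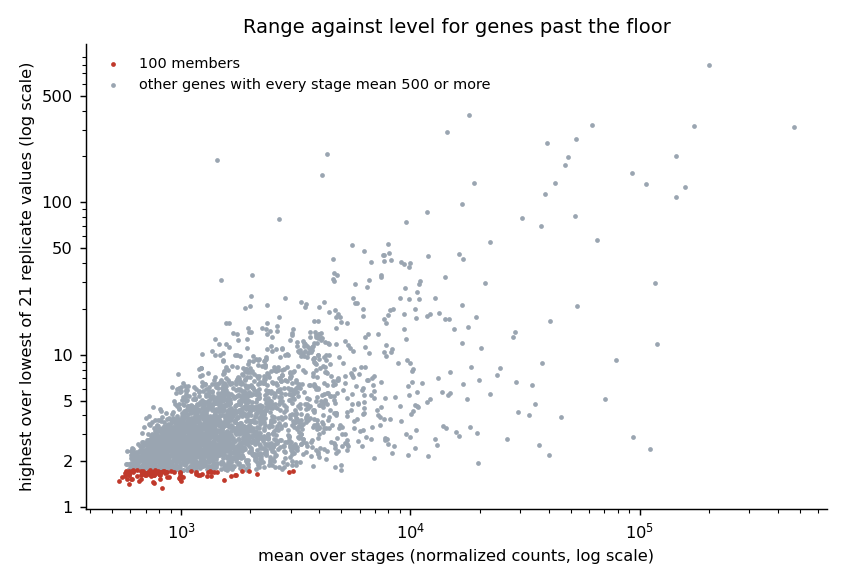
Each point is a gene with every stage mean at 500 normalized counts or more; the x axis gives its mean over the 7 stages and the y axis the highest over the lowest of its 21 replicate values, both on log scales. The 100 members form the lower edge, up to 1.74, and 24 of them have a mean of 1000 or more; 3 genes with a 0 in a replicate have no ratio and are not drawn.

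The steadiest member was Glyma16g08080, with a highest over lowest value of 1.34. Its replicates held 924, 951 and 746 normalized counts in early desiccation, 775, 969 and 818 in mid desiccation, 732, 766 and 911 in late desiccation and 920, 813 and 882 in dry seed. After imbibition they held 912, 725 and 731 at 3 h, 831, 787 and 822 at 16 h and 766, 735 and 748 at 27 h. The replicates of every stage overlapped with those of early desiccation, the stage with the highest mean, and the 3 values at 27 h lay below all those of dry seed.

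Glyma20g02060, the second in rank, ranged from 480 normalized counts in 16 h replicate 1 to 684 in 3 h replicate 3, a ratio of 1.42. Glyma17g23500, the third, held 832, 824 and 833 at 3 h and 692, 693 and 695 at 16 h, so these stages did not overlap although its whole range was only 1.45-fold. Glyma19g45330 (1.46) showed the same step between these stages, with 866, 884 and 854 at 3 h and 701, 671 and 689 at 16 h.

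Ranks 5 to 10 were held by Glyma14g10510 (1.48), Glyma05g34610 (1.49), Glyma15g07790 (1.49), Glyma01g44700 (1.51), Glyma03g28960 (1.52) and Glyma05g28790 (1.53), where each number is the highest over lowest value. In 5 of these 6 the replicates of the highest and the lowest stage overlapped, the exception being Glyma01g44700. In Glyma15g07790 both extremes fell in 1 stage, at 412 normalized counts in late desiccation replicate 1 and 616 in replicate 3. Only 7 of the 100 members stayed under 1.5-fold.

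Values ran on without a gap at the edge of the list. The last members taken were Glyma17g31399, Glyma18g43390, Glyma15g16500, Glyma17g02960 and Glyma07g40231, with ratios of 1.741, 1.743, 1.743, 1.743 and 1.745, and the first not taken were Glyma13g39570, Glyma20g28191, Glyma20g24820, Glyma12g29590 and Glyma18g44470, with 1.745, 1.745, 1.746, 1.748 and 1.748. At the floor, Glyma09g08650 was the member nearest to it, with 500.4 normalized counts at its lowest stage, while Glyma20g11094 at 497.1 was left out with a ratio of 1.74.

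The members with the most normalized counts, an order of read numbers, were Glyma13g21760, Glyma10g07980 and Glyma10g38940. Glyma13g21760 averaged 3506 ± 869 normalized counts in early desiccation, 3671 ± 223 in mid desiccation, 3037 ± 727 in late desiccation, and 3103 ± 263 in dry seed (SD, n = 3 each). After imbibition it averaged 3285 ± 360 at 3 h, 2405 ± 21.5 at 16 h and 2540 ± 81.8 at 27 h (SD, n = 3 each). Its spread between replicates was thus widest in early and late desiccation, where its low values were 2510 in early desiccation replicate 3 and 2463 in late desiccation replicate 1, and its 16 h replicates lay below those of every other stage. Glyma10g07980 held 3644, 3609 and 3676 at 3 h, against 2756, 2188 and 2257 in dry seed, with no overlap. Glyma10g38940 overlapped between all stages and averaged 1978 to 2260. Those with the fewest were Glyma15g07790, Glyma14g36280 and Glyma06g16240, with means over the stages of 537, 550 and 569.

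The least change of stage means was found in Glyma10g02690, singled out after its values were seen. Its stage means lay between 577 ± 37.2 normalized counts at 27 h and 634 ± 32.6 at 3 h (SD, n = 3), a ratio of 1.10. Its replicates ranged 1.53-fold, from 517 in early desiccation replicate 3 to 790 in late desiccation replicate 3, so that single replicates differed more than stage means did. Its 3 h replicates (609 to 671) still lay above those of 27 h (535 to 605).

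**Figure D2:**
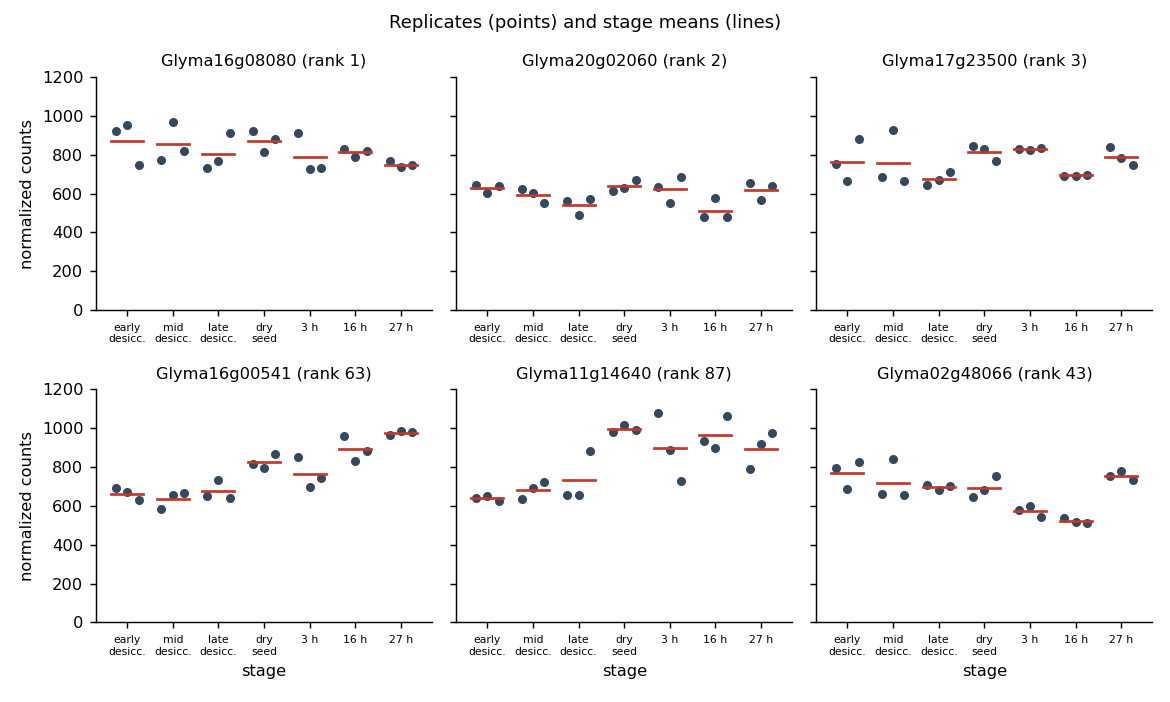
Normalized counts of 6 members at the 7 stages, with replicates as points and stage means as lines. The upper row holds the first 3 members by rank; the lower row holds the 3 members with the smallest p-value for a stage effect, whose stage means differ by up to 1.56-fold.

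The extremes of the members fell in a few libraries more than in others. The highest value of a member fell in dry seed replicate 1 for 15 members and in mid desiccation replicate 2 and early desiccation replicate 1 for 10 each, while 5 libraries held the highest value of none. The lowest fell in late desiccation replicate 1 for 19 members and in early desiccation replicate 3 for 18, that is 37 members in a pair of libraries. The members' median deviation from their own mean on the log2 scale was -0.21 in late desiccation replicate 1, -0.20 in early desiccation replicate 3 and 0.18 in dry seed replicate 1. The other genes past the floor had medians of -0.18, -0.19 and 0.43 in these same libraries. Members and other genes thus lay, by their medians, on the same side of their own means in each of these libraries. These means are over all 21 replicates, so the deviations hold differences between stages as well as between libraries. The part of the deviations in the ranges was not tested.

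**Figure D3:**
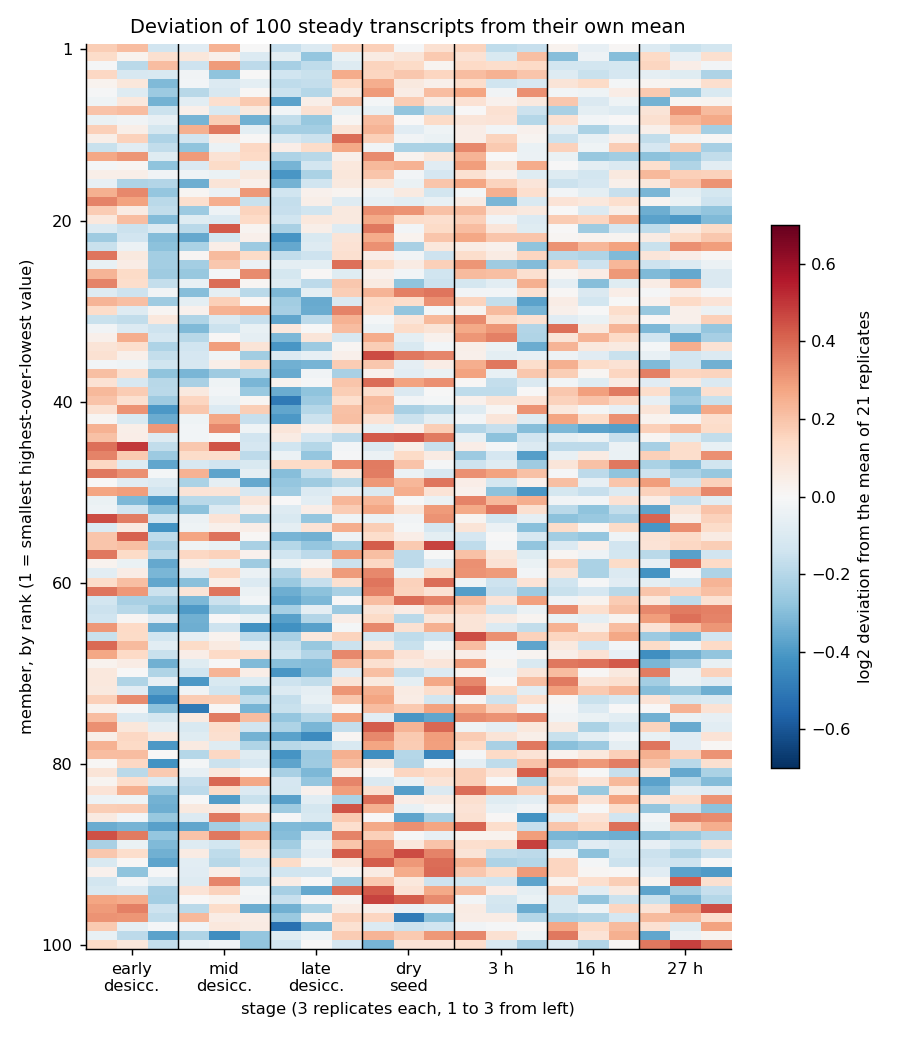
Each row is 1 of the 100 members by rank and each column 1 of the 21 replicates; color gives the log2 deviation of the value from the member's own mean. Pale colors prevail in the upper rows, and blue columns stand out in early desiccation replicate 3 and late desiccation replicate 1, where the medians are -0.20 and -0.21.

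Spread within and between stages was about equal in the members. The median SD of log2 values was 0.16 within stages and 0.16 between stage means, and within-stage SD was the larger in 53 of 100 members. In the other genes past the floor the medians were 0.22 within stages and 0.43 between stage means. Repeat runs of a replicate were close by their medians: over the 20 replicates with 2 or 3 runs, the highest over lowest run of a member had medians between 1.05 and 1.15, against 1.04 to 1.16 in the other genes, so sequencing the same replicate again moved members and other genes by similar medians. The widest run ratio of a single member was 1.24 to 2.15 in these replicates, with 2.15 in dry seed replicate 2. The limit of 1.74-fold thus holds for averaged runs and not for single runs.

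Between stages, most members had their highest mean in dry seed (29 members), at 3 h (20), at 27 h (17) or at 16 h (15), and their lowest at 27 h (28) or in late desiccation (24). Mid and early desiccation held the highest mean of 10 and 8 members and late desiccation of 1. In the other genes past the floor 39.6% had their highest mean in dry seed and 55.0% their lowest at 27 h. As the plot of library medians shows, the median log2 deviation at 27 h was -0.01, -0.04 and 0.01 in the members and -0.50, -0.44 and -0.37 in the other genes. The difference between both sets at 27 h is what the rule selects for.

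**Figure D4:**
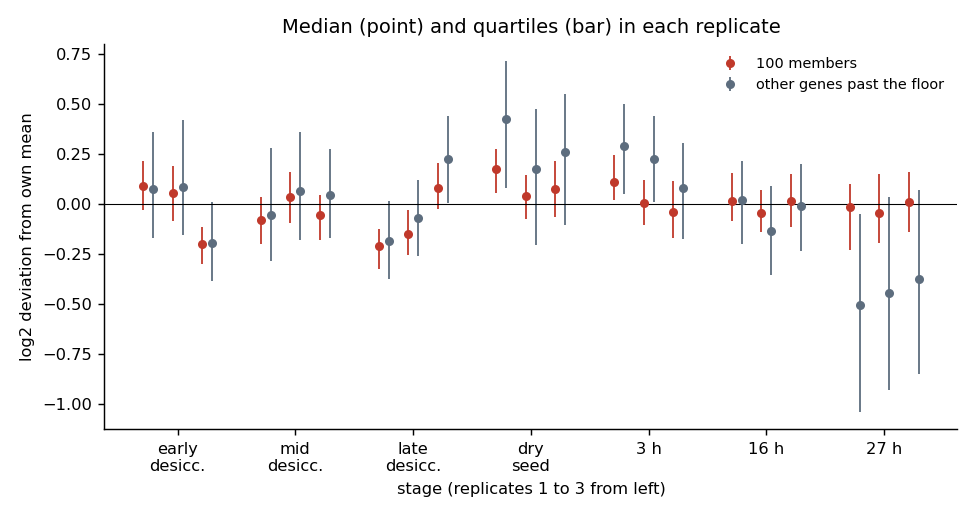
Points are the median log2 deviation of a gene from its own mean in each replicate and bars reach from the lower to the upper quartile, for the 100 members and for the other genes past the floor. Members stay between -0.21 and 0.18, while the other genes reach 0.43 in dry seed replicate 1 and -0.50 in 27 h replicate 1.

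To see how many small steps between stages exceeded replicate spread, 46537 genes (10 or more normalized counts in 3 or more of the 21 replicates) were fitted with limma on log2(value + 1), which understates the change of low genes. By the F test across stages, 24 of the 100 members passed an adjusted p under 0.05, against 43.0% of all genes tested. The members had been chosen on these values, and nothing is read from that count. It became 43 when early desiccation replicate 3 was dropped, with 61.4% of all genes called, and 37 when late desiccation replicate 3 was dropped, with 49.0% of all genes called. Leaving out dry seed replicate 1, 2 or 3 gave 12, 15 and 10 members, with 42.1%, 42.4% and 41.4% of all genes called. Between a member's own highest and lowest stage, picked by their means, the replicates did not overlap in 80 of the 100 members and in 95.6% of the other genes past the floor.

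The members that passed this test differed in shape. Glyma16g00541, with the smallest p, held 691, 669 and 629 normalized counts in early desiccation, 582, 657 and 668 in mid desiccation, 652, 732 and 642 in late desiccation and 814, 793 and 866 in dry seed. After imbibition it held 850, 696 and 744 at 3 h, 961, 830 and 881 at 16 h and 966, 986 and 979 at 27 h. Its 27 h replicates lay above all others, and its dry seed replicates above all those of desiccation. Glyma11g14640 held 640, 651 and 627 in early desiccation, 634, 692 and 723 in mid desiccation, 657, 655 and 885 in late desiccation and 979, 1017 and 989 in dry seed, then 728 to 1080 in the 9 replicates after imbibition. It thus stood on a higher step from dry seed on, with late desiccation replicate 3, the shallow library, already above the 2 other replicates of that stage.

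Glyma02g48066 went the other way after imbibition. It held 793, 689 and 824 in early desiccation, 661, 843 and 656 in mid desiccation, 709, 682 and 703 in late desiccation and 645, 684 and 755 in dry seed, and then 580, 598 and 544 at 3 h, 538, 517 and 511 at 16 h and 752, 782 and 732 at 27 h. The 3 h and 16 h replicates lay below those of all other stages, and at 27 h the level was back in the range before imbibition. Under TMM scaling, described below, this gene had the narrowest range of all 100 members, 1.83-fold.

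Germination was read from 27 h against dry seed. Of the members, 3 were higher and 16 lower at 27 h by limma at an adjusted p under 0.05, against 22.2% of all genes tested called higher and 17.4% called lower. The median log2 difference was -0.11 in the members, -0.72 in the other genes past the floor and 0.12 in all genes tested, and it was negative in 65 members. The 19 called members lay between -0.64 and 0.60, a size that the choice of members limits, since no 2 replicate values of a member differ by more than 1.74-fold. DESeq2 called 2 members higher and 21 lower, against 22.6% and 19.9% of all genes tested. Run 1 alone gave 9 and 12, against 20.5% and 17.3%, and edgeR gave 1 and 1, against 20.5% and 15.6%. With TMM scaling 6 members were higher and 0 lower, against 24.6% and 13.9% of all genes tested, and that scaling moved the median of all genes tested by 0.20. The split of the members' calls thus differed between these settings. TMM values were built from reads summed over runs, so scaling and the handling of runs changed together. TMM was also the scaling in edgeR.

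For these called members the examples were chosen after their values were seen. Glyma06g06650 held 976, 868 and 947 normalized counts at 27 h, against 1510, 1460 and 1365 in dry seed (log2 difference -0.64 ± 0.14 SE). Glyma12g31530 held 692, 745 and 725 at 27 h, against 1101, 1094 and 1013 in dry seed (log2 difference -0.57 ± 0.13 SE). Neither gene overlapped between these stages, and for both dry seed had the highest and 27 h the lowest mean of all stages. Glyma01g42890 held 1684, 1584 and 1767 at 27 h, against 1054, 1235 and 1032 in dry seed (log2 difference 0.60 ± 0.15 SE), and Glyma07g40231, the last member taken, held 789, 851 and 786 at 27 h, against 488, 654 and 653 in dry seed (log2 difference 0.45 ± 0.15 SE).

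Drying was read from dry seed against early desiccation. Here 7 members were higher and 1 lower in dry seed by limma at an adjusted p under 0.05, against 7.07% and 6.87% of all genes tested. The median log2 difference was 0.10 in the members, 0.31 in the other genes past the floor and 0.18 in all genes tested. With TMM scaling 18 members were higher and 0 lower, against 10.4% and 2.32% of all genes tested, and the median of all genes tested moved by 0.27. DESeq2 called 9 higher and 1 lower, against 8.58% and 9.39% of all genes tested. When early desiccation replicate 3 was dropped, 4 members were higher and 4 lower, against 14.4% and 9.45% of all genes tested. Run 1 alone, with that library kept, also gave 4 and 4, against 7.35% and 6.66% of all genes tested. The direction of these calls thus changed with the libraries and runs used, and the reason was not tested. Leaving out dry seed replicate 1, 2 or 3 gave 3, 3 and 2 calls, against 10.5%, 11.8% and 11% of all genes tested. Leaving out early desiccation replicate 2 gave 2, against 9.81%.

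Glyma11g14640 averaged 995 ± 19.8 normalized counts in dry seed and 639 ± 12.1 in early desiccation (SD, n = 3 each; log2 difference 0.64 ± 0.15 SE). Glyma13g40325, chosen after its values were seen, averaged 759 ± 33.0 in dry seed and 529 ± 69.1 in early desiccation (log2 difference 0.53 ± 0.14 SE), and it was back at 569 ± 109 at 3 h. The member that was lower was Glyma01g42890, with 1107 ± 111 in dry seed and 1573 ± 131 in early desiccation (log2 difference -0.51 ± 0.15 SE), and dry seed was the lowest of its 7 stage means.

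Steadiness in normalized counts was not steadiness as a share of the library. The members summed to 92712 ± 10530 normalized counts in early desiccation, 98132 ± 5271 in dry seed and 91908 ± 2064 at 27 h (SD, n = 3 each). As the total of normalized counts of a library was lower late in the series (11.1 to 11.7 M at 27 h, against 17.6 to 20.5 M in dry seed), the same sums were 0.481% ± 0.026 of the library in early desiccation, 0.453% ± 0.021 in mid desiccation, 0.478% ± 0.028 in late desiccation, and 0.524% ± 0.015 in dry seed. After imbibition they were 0.523% ± 0.040 of the library at 3 h, 0.671% ± 0.013 at 16 h and 0.801% ± 0.016 at 27 h. Replicates at 27 h and at 16 h did not overlap with each other or with any earlier stage. Scaled by total reads alone, with reads pooled (summed) over runs, the median range of the members was 2.29-fold. By the same rule only 4 of the 100 would have been taken, while 87 passed the floor. Pooling runs under the deposited scaling gave a median range of 1.70-fold, and 75 were taken again.

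Scaling with TMM, which trims genes of extreme ratio before it sets the library sizes, gave a different picture again. The median range of the members was 2.61-fold, from 1.83-fold in Glyma02g48066 to 3.35-fold, and 27 of the 100 were taken again. Under TMM 88 of the 100 members had their lowest mean in late desiccation and 40 their highest at 27 h. The median log2 deviations of the members under TMM were -0.06, -0.13 and -0.73 in early desiccation and 0.52, 0.21 and -0.10 at 3 h, against 0.09, 0.05 and -0.20 in early desiccation and 0.11, 0.00 and -0.04 at 3 h under the deposited scaling. The span of these medians over the replicates of a stage was wider under TMM at 5 of the 7 stages and narrower at 16 h (0.03 against 0.06) and 27 h (0.04 against 0.05). The members were chosen to be tight under the deposited scaling. Size factors recomputed as medians of ratios from the recovered reads lay between 0.999 and 1.001 times the deposited ones.

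**Figure D5:**
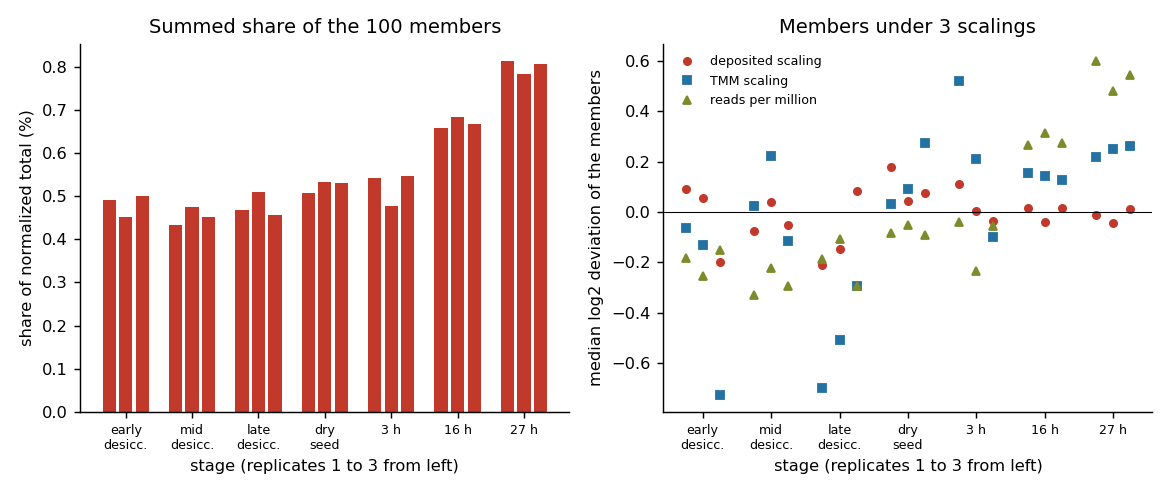
Left, summed normalized counts of the 100 members as a percentage of the normalized total of each replicate; right, the median log2 deviation of the members in each replicate under the deposited scaling, TMM scaling and scaling by total reads alone. The share is 0.801% ± 0.016 at 27 h, and the deposited scaling keeps the medians between -0.21 and 0.18.

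Which stages fix the list was examined by ranking the genes on 6 stages. Reading the genes so taken at the stage left out was added after the data were seen. The 100 genes taken without 16 h, mid desiccation, early desiccation or 3 h shared 81, 80, 77 and 76 with the members, and without late desiccation 56. In each of these cases all 100 were, at the stage left out, within 2-fold of their mean over the other stages, as were 93.9% to 98.0% of the rest of the genes past the floor. Without dry seed 41 were shared, 99 of 100 stayed within 2-fold in dry seed, against 88.8% of the rest, and 91 were higher there. Their median log2 difference in dry seed was 0.38, against 0.22 in the rest. Without 27 h, 4287 genes passed the floor and only 30 of the 100 taken were members. At 27 h 83 of those 100 were within 2-fold, against 51.6% of the rest, their median log2 difference was -0.48, against -0.90 in the rest, and single genes lay between -2.56 and 2.06. The stage mean at the stage left out lay inside the range of the other replicates for 36 of 100 genes in dry seed and 26 at 27 h, against 74 to 97 at the other stages. By their medians, genes steady elsewhere and the rest moved the same way, upward in dry seed and downward at 27 h. The difference from the rest of the genes was not tested.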

How the data were processed

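Total RNA was sequenced as Illumina TruSeq cDNA libraries, per the labels' protocols. Trimmomatic 0.38 and HISAT2 were used, per the submitters' processing notes; no source used here names the counting tool, genome build, annotation or use of strand, so overlapping, antisense and near-identical genes are uncertain. The deposited signal is each gene's read count over its library's DESeq size factor, as the table is named. Values were whole multiples of 1 read within 0.001 reads (99.9997% of values), so reads were recovered. Of 46 samples, 45 matched a column; 1 column matched no label and was not used. Runs were averaged per replicate.

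The members and named-gene rules were chosen with earlier results of these data known. Named by rule were ranks 1 to 10 and 96 to 105, the 3 highest and 3 lowest by level, the member nearest the floor, the 3 with the smallest F-test p, and members next to each other in ID order (0 pairs). All genes tested were fitted on log2(value + 1) by limma 3.58.1 (R 4.3.3), 1 mean per stage, trend and robust moderation, Benjamini-Hochberg adjustment, and the fit was tested on simulated counts. Alternatives used edgeR 4.0.16, with TMM scaling, and DESeq2 1.42.0, with its own size factors, on recovered reads summed over runs. Without a fold threshold edgeR called 19689 and DESeq2 22924 genes for a stage effect, against 20011 by limma. Ranking ran in Python 3.11.15 (pandas 2.3.3, numpy 2.4.6) and plots in matplotlib 3.10.9. Counting SDs cover counting error only, for reads summed over runs. Product lists set for the tissue could not be applied, as no ID had a product.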

Additional observations from a re-analysis of the deposited data

How the results depend on the processing

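The range of the members was wider under other scalings. Leaving out a library or a stage can only keep or narrow the range of these genes, so such values cannot test it. Its median, 1.67-fold, was 1.65 to 1.67 without any 1 replicate, 1.63 without early desiccation, 1.63 without dry seed, 1.62 without 27 h, 1.63 without early desiccation replicate 3, late desiccation replicate 3 and dry seed replicate 1 together, 2.61 with TMM and 2.29 scaled by total reads alone. Of the 100 members, 72 to 98 were taken again without any 1 replicate, 56 without those 3 libraries, 65 with run 1 alone, 27 with TMM, 4 scaled by total reads alone, 55 when ranked by stage means, 40 with a floor of 200 and 19 with a floor of 1000; without late desiccation, dry seed or 27 h it was 56, 41 and 30. With the median deviation of the other genes past the floor removed, an alternative added after the data were seen, it was 7. The causes were not tested.

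A stage effect was called by limma for 24 members, and for 10 to 43 without any 1 replicate. Counts under 16 came without dry seed replicates 1, 2 and 3 (12, 15 and 10), 3 h replicate 2 (15), 16 h replicates 2 and 3 (15 and 13) and 27 h replicates 2 and 3 (14 and 14). These fits called 38.4% to 42.4% of all genes tested. For 27 h against dry seed the count was 19, and 13 to 24 without any 1 replicate. For dry seed against early desiccation it was 8, and 2 to 12 without any 1 replicate. It was 5 without 16 h replicate 3 and 5 without 27 h replicate 3, with 12.9% and 13.2% of all genes tested called. In that order the 3 counts were 74, 6 and 18 with TMM, 60, 2 and 27 with edgeR, and 38, 23 and 10 with DESeq2. They were 62, 29 and 14 without early and late desiccation replicate 3, and 59, 21 and 15 without dry seed replicate 1 as well. Of all genes tested, limma called 43%, 39.6% and 13.9% in the main fit and 44.5%, 38.5% and 12.8% with TMM. The shares were 42.3%, 36.1% and 14.3% with edgeR and 49.5%, 42.6% and 18% with DESeq2. Without early and late desiccation replicate 3 they were 89%, 52% and 38.3%, and without dry seed replicate 1 as well 93.6%, 57% and 58.3%. Of calls for dry seed against early desiccation, edgeR, which also used TMM, gave 27 higher and 0 lower, against 11.4% and 2.89% of all genes tested. Run 1 alone gave 4 and 4, against 7.35% and 6.66%, and leaving out early desiccation replicate 3 also 4 and 4, against 14.4% and 9.45%. The fit without the 3 libraries gave 5 and 10, against 45.8% and 12.5%. Fitting dry seed and early desiccation alone called 1, against 12.6% of the genes tested in that fit. With a 2-fold threshold limma called 0 in each, which the choice of members fixes, since their replicate values lie within 1.74-fold, with 38, 28 and 23 members at an unadjusted p under 0.05; edgeR and DESeq2 were not run with that threshold. With replicate number as a block (replicate block) the counts were 19, 18 and 7, against 41.7%, 38.8% and 13.6% of all genes tested. Deviations of same-numbered replicates correlated over 0.1 in 18 of 63 pairs (r -0.33 to 0.58, median -0.01). Of 21 libraries, 8 correlated best with their own number, and shared origin was not tested.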

Other observations

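By the numbering of the IDs the members lie on all 20 chromosomes. Chromosome 5 held 11 members among its 139 genes past the floor (7.91%) and chromosome 10 held 10 of 182 (5.49%), against 3.48% over all genes past the floor, while chromosomes 13 and 2 held 2 members each, 1.28% of 156 and 1.49% of 134. These shares were not tested. No 2 members were next to each other in ID order among the genes tested; the closest pairs were Glyma15g07760 with Glyma15g07790, 3 genes apart, and Glyma05g00445 with Glyma05g00550, 8 genes apart.

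Small ranges were not restricted to the levels that the floor admits. Below it, 218 genes had a range no wider than that of the last member taken, among them Glyma13g35120, with a lowest stage mean of 494.5 normalized counts and a ratio of 1.61.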
